A study of Mus musculus with 4 samples.

Results

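Alpl, Phospho1, Enpp1, Phex, Slc20a1 and Slc20a2 are 6 genes of phosphate handling and bone mineralization. Their levels were followed across every tissue in coronal sections of the embryonic mouse head. The 6 genes were chosen by symbol as genes of these processes, and each was listed 1 time among the 19465 genes of the count tables. Gene expression was measured with Visium, in which a formalin-fixed, paraffin-embedded section lies on an array of barcoded spots and unique molecular identifiers (UMIs) are counted per gene and spot. The heads were wild type, of the C57BL/6J strain by the study's methods, at embryonic day E14.5 and E15.5. Each stage had 2 capture areas, of which one held the section of replicate 1 and the other held 3 sections, of replicates 2, 3 and 4 (named here replicate 2-3-4). An area is 1 library, so it was the sample in every test, and p-values measure only the spread between these samples, which may be technical.

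The 4 areas held 6357 spots over tissue with counts. The median per tissue spot was 6752 UMIs in E14.5 replicate 1, against 45058.5 in E14.5 replicate 2-3-4, 64051 in E15.5 replicate 1 and 45471.5 in E15.5 replicate 2-3-4. E14.5 replicate 1 was thus the shallow library, with 15438992 UMIs in all against 67344393 to 109127953 in the others, and 1 of the sections of E14.5 replicate 2-3-4 (section A by its place on the array) was also shallow, with a median of 10037.5 UMIs per spot. Levels are given as CPM, the UMIs of a gene for every 1000000 UMIs of the same spots. Since better-captured transcripts can give more UMIs, levels were compared within a gene and not between genes. Each spot covers a small patch of tissue with several cells, so fewer cells of a type and less RNA per cell cannot be told apart in any value below. Of all 3185 spot barcodes, 2161 occurred in more than 1 area, because the areas use the same array layout.

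Bone mineral is laid down when phosphate and calcium precipitate in matrix vesicles and on collagen, and inorganic pyrophosphate blocks the growth of the crystals. Tissue-nonspecific alkaline phosphatase, encoded by Alpl, cleaves pyrophosphate and releases phosphate, while PHOSPHO1 releases phosphate from phospholipid head groups inside matrix vesicles. ENPP1 works in the other direction and makes pyrophosphate from extracellular ATP. PHEX is a cell-surface endopeptidase of osteoblasts, osteocytes and odontoblasts whose loss causes X-linked hypophosphataemia, and Slc20a1 and Slc20a2 encode the sodium-dependent phosphate importers PiT-1 and PiT-2, which many cell types use.

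On GRCm38 by the GENCODE M21 annotation, all 6 genes are protein coding. Alpl (ENSMUSG00000028766) lies at chr4:137741733-137796384 on the minus strand, Phospho1 (ENSMUSG00000050860) at chr11:95824499-95832140 on the plus strand and Enpp1 (ENSMUSG00000037370) at chr10:24637914-24712159 on the minus strand. Phex (ENSMUSG00000057457) lies at chrX:157162075-157415312 on the minus strand, Slc20a1 (ENSMUSG00000027397) at chr2:129198764-129211616 on the plus strand and Slc20a2 (ENSMUSG00000037656) at chr8:22476788-22569612 on the plus strand.

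The 4 members with the largest differences between bone spots and other spots are shown here with the 250 bases before their RefSeq start (GRCm38.p6, read 5′ to 3′ on the gene's strand) because all 4 were higher in bone spots in every area, as described next. Capitals mark GC boxes (GGGCGG or, on the other strand, CCGCCC) and the core of RUNX sites (TGTGGT or, on the other strand, ACCACA). A search for the homeobox core TAATTA, which reads the same on both strands, was made in the same windows. The windows are chr4:137796385-137796634 on the minus strand for Alpl (the upstream of its 2 RefSeq starts), chr11:95824250-95824499 on the plus strand for Phospho1, chr10:24712160-24712409 on the minus strand for Enpp1 and chrX:157415287-157415536 on the minus strand for Phex.
Alpl: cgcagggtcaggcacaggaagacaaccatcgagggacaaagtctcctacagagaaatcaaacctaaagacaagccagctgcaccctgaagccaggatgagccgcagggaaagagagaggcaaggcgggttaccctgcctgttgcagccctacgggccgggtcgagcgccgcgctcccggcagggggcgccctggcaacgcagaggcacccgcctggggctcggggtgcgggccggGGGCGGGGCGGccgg
Phospho1: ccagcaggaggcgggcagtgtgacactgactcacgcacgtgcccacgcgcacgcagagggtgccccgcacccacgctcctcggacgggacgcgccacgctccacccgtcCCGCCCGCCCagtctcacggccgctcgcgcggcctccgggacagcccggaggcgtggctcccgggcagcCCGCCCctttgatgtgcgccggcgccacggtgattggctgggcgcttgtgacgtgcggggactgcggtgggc
Enpp1: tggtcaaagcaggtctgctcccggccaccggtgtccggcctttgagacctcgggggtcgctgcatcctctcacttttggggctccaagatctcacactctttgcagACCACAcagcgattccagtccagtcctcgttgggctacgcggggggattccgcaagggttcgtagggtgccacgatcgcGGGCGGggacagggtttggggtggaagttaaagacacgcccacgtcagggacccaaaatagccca
Phex: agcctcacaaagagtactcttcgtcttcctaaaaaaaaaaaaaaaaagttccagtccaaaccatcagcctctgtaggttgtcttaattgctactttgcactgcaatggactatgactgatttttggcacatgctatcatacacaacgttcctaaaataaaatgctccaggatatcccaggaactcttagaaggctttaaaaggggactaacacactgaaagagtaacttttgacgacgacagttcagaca
Alpl held 2 GC boxes that share 1 base, starting 15 and 10 bases before the start. Phospho1 held 3 GC boxes, at 141, 137 and 72 bases, of which the outer pair overlap. Enpp1 held 1 RUNX core 144 bases and 1 GC box 65 bases before the start, and Phex held none of the 3 motifs. The last 26 bases before the RefSeq start of Phex lie in an exon of the GENCODE annotation. No window is shown for Slc20a1, whose upstream window lies in an annotated exon, nor for Slc20a2. The upstream window of Slc20a1 also held a RUNX core, 77 bases before the start, and GC boxes at 152 and 46 bases. Over all 32851 RefSeq promoter windows of this length, the GC box was present in 32.7%, the RUNX core in 14% and the homeobox core in 4.84%. GC content was 68.4% for Alpl, 75.6% for Phospho1, 61.2% for Enpp1 and 39.2% for Phex, against a median of 52.4% and quartiles of 45.2% and 61.2% over all windows. These letter matches are a description and not evidence of binding.

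Bone spots were compared with all other tissue spots of the same area, to ask which members are concentrated where bone forms. A bone spot had at least 500 UMIs, at least 3 UMIs of the bone genes Ibsp, Sp7, Ifitm5 and Bglap together, and at least 500 CPM of them. None of the members took part in that choice. It gave 2013 bone spots, 243, 573, 279 and 918 in the order E14.5 replicate 1, E14.5 replicate 2-3-4, E15.5 replicate 1 and E15.5 replicate 2-3-4, which is the order used for every set of 4 values. With edgeR's quasi-likelihood test, the area as a term and Benjamini-Hochberg adjustment over 15240 genes, 56.4% of all genes were called at an adjusted p under 0.1, 27.2% as higher and 29.2% as lower in bone spots. All 6 members were called, 5 higher and 1 lower. With so many genes called, the size of a difference says more than the call.

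Alpl was at 304, 364, 376 and 335 CPM in bone spots and at 30.1, 40.7, 44.0 and 39.8 in the other spots. The 2 sets did not overlap, and the difference was 3.18 on the log2 scale (SE 0.0678, edgeR adjusted p = 1.2e-06). Phospho1 was at 200, 230, 221 and 252 CPM in bone spots and at 10.2, 18.4, 19.8 and 24.9 elsewhere, a log2 difference of 3.66 (SE 0.135, edgeR adjusted p = 8.7e-06). This was the largest bone difference among the members, and bone spots held 76.7% to 91.3% of all Phospho1 UMIs of an area and 63.0% to 89.8% of those of Alpl. Bone spots held 14.4%, 29.0%, 25.2% and 51.0% of the UMIs of all genes in the 4 areas.

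Phex was at 31.5, 45.6, 45.9 and 50.9 CPM in bone spots and at 5.83, 5.79, 6.87 and 10.2 elsewhere, a log2 difference of 2.67 (SE 0.128, edgeR adjusted p = 1.71e-05). E14.5 replicate 1 was the lowest in bone and rested on 70 Phex UMIs there. Enpp1, the source of pyrophosphate, was also higher in bone, though less so, with 37.3, 33.5, 36.8 and 28.0 CPM in bone spots and 10.5, 10.6, 9.47 and 12.7 elsewhere. Its log2 difference was 1.65 (SE 0.137, edgeR adjusted p = 0.000107), and per area it was 2.20-fold to 3.88-fold higher in bone spots, against 8.43-fold to 10.1-fold for Alpl. The groups did not overlap for any of these 4 genes, and the share of all genes without overlap was not counted.

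The phosphate importers differed little between bone and the rest of the head, and in opposite directions. Slc20a1 was at 67.5, 86.9, 82.9 and 62.0 CPM in bone spots and at 125, 118, 113 and 77.3 elsewhere, lower in bone in 4 of 4 areas, with a log2 difference of -0.47 (SE 0.101, edgeR adjusted p = 0.00746). Slc20a2 was at 65.7, 79.2, 63.1 and 92.7 in bone spots and at 43.2, 67.2, 53.8 and 88.2 elsewhere. It was higher in bone in 4 of 4 areas, with a log2 difference of 0.28 (SE 0.0794, edgeR adjusted p = 0.0225), but the sets overlapped for both importers and the difference shows only within areas. The 6 calls held in each of the 13 alternatives tried.

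**Figure D1:**
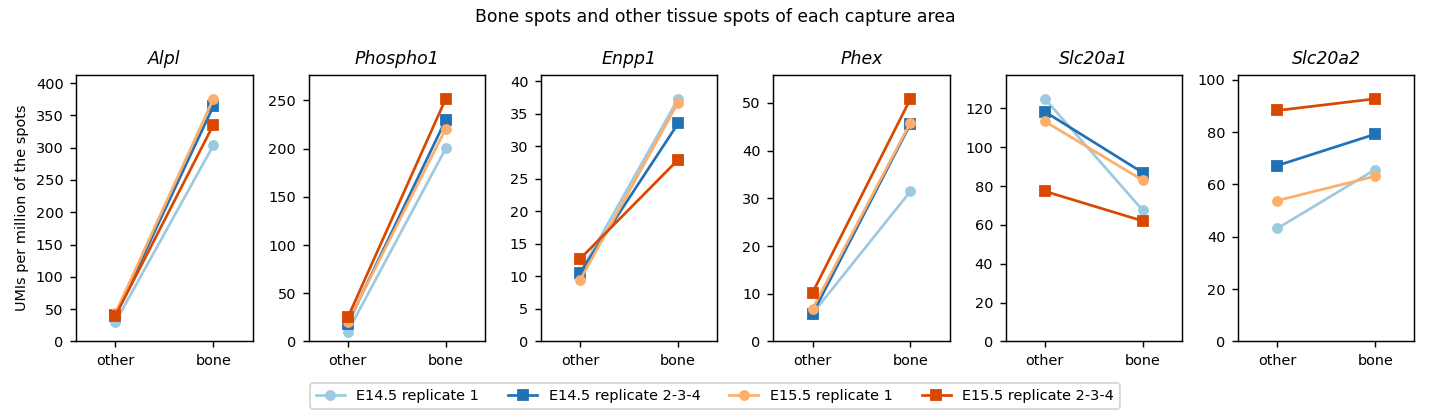
CPM of each of the 6 genes in other tissue spots and in bone spots (vertical axes start at 0 and differ between panels). Each line joins the 2 values of 1 capture area. Lines rise steeply for Alpl, Phospho1, Enpp1 and Phex, fall for Slc20a1 in all 4 areas and rise slightly for Slc20a2.

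Marker genes of other cells that live in bone were measured in the same spots. The summed level of the osteoclast genes Ctsk, Acp5, Mmp9 and Oscar was 392 to 879 CPM in bone spots and 87.0 to 177 elsewhere, with none of the 4 genes at 0. The macrophage list of 4 genes was at 147 to 192 against 91.5 to 148, and the 4 erythroid genes measured were at 3488 to 4953 against 2204 to 4082. The ranges of the macrophage and erythroid lists overlapped between bone and other spots, and that of the osteoclast list did not. The part of these cells in the members' bone levels was not tested. The bone genes that chose the spots summed to 2158 to 2887 CPM in bone spots and 94.97 to 228 elsewhere, so the other spots were not free of bone RNA.

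Of 23 further genes of mineralization and phosphate handling, 17 could be tested between bone spots and the rest. In bone spots 12 were higher and 2 lower, with a median log2 difference of 0.835 against -0.00461 over all genes tested. Among the inhibitors of mineral growth, Spp1 (osteopontin) was higher by 3.94, Nt5e, which makes adenosine outside the cell, by 0.88 and Ank, which lets pyrophosphate out of the cell, by 0.44. Mgp, at 0.22, and Abcc6, at -0.03, were not called. All 4 vesicle genes were higher, from 0.64 for Anxa6 to 1.99 for Smpd3, which encodes a neutral sphingomyelinase. Of the hormone axis and its matrix genes, Dmp1, an acidic protein of the bone matrix, was higher by 3.87, Vdr (vitamin D receptor) by 2.60, Pth1r (receptor of parathyroid hormone and its related peptide) by 1.92, Galnt3 by 1.09 and Fgfr1 by 0.57. Fam20c, a kinase of the secretory pathway, was lower, with a log2 difference of -0.72, and Kl, at -0.44, was not called. Of the other phosphate transporters only Xpr1, the phosphate exporter, could be tested, and it was lower, with a log2 difference of -0.75. The edgeR adjusted p of the called genes ran up to 0.00488. Too few counts were found to test Ahsg, Fgf23, Mepe, Slc34a1, Slc34a2 and Slc34a3, which had 3 to 53 UMIs each over all tissue spots.

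To describe the members by tissue, spots were clustered into 14 regions on genes that included neither the members nor the 23 further genes. Regions are called by their leading genes, and 12 of them, with 5655 spots, were read as tissue. A region of 360 spots of which 358 came from E14.5 replicate 1 (median 2283 UMIs) and a region with a median of 1198 UMIs were left out. The region led by Ibsp and Mmp13 (642 spots) is called the bone region here. Among its first 10 genes were Sp7 and Ifitm5 of osteoblasts and also Mmp9 and Acp5 of osteoclasts. By the rule above 641 of its spots were bone spots, and the rest of the 2013 bone spots lay in other regions. The bone genes summed to 4990 CPM in the bone region. They were at 758 in the Krt17 and Sostdc1 region, 750 in Matn1 and Slc22a6 and 697 in Matn1 and Col9a1. The part of this bone RNA in the members' levels there was not tested. Levels by region are a description with no test, given as the mean ± SD over the 4 areas.

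Alpl was highest in the bone region, at 598, 624, 721 and 615 CPM (640 ± 55.5, n = 4), which was 4.57 times the next region and 29.9 times the lowest. The bone region did not overlap any other region. Next came the Krt17 and Sostdc1 region (140 ± 38.7). Its leading genes included Krt5, Krt14 and Krt15 of basal epithelium but also Pax9 and Msx1, so its level is not assigned to epithelium. The Matn1 and Col9a1 region (131 ± 26.3) and the Matn1 and Slc22a6 region (127.4 ± 56.2), both led by cartilage genes, followed. After them came the Slc26a7 and Foxl2 region (84.8 ± 4.76). Neighbours in this order overlapped, while the Matn1 and Col9a1 region lay above the Slc26a7 and Foxl2 region in all 4 areas. The lowest levels were in the regions of brain genes, at 25.2 ± 8.27 for Neurod2 and Neurod6, 22.8 ± 4.78 for Ttr and Mt3 and 21.4 ± 4.17 for Tmem130 and Zic1, which overlapped each other. The Ttr and Mt3 region was mixed. Its choroid plexus genes, Ttr among them, summed to 7693 CPM, its neuron genes to 2015 and its radial glia genes to 664.

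Phospho1 was the most unevenly spread of the members. It was at 425, 406, 450 and 493 CPM in the bone region (444 ± 37.7, n = 4), 5.94 times the next region, Matn1 and Slc22a6, at 74.7 ± 39.6, and 101 times the Ttr and Mt3 region at 4.38 ± 2.65. The bone region again overlapped no other, and the regions between the second and the eleventh place each overlapped their neighbours in the order, while the Ttr and Mt3 region lay below its neighbour in all 4 areas. The Ttr and Mt3 values rest on 7 to 59 UMIs per area. With 20 clusters the region led by Deup1 and Reg3g was second, at 97.4 ± 9.73 over 3 areas against 449 ± 41.5 in bone. The bone region held 12.5% of the UMIs of all genes but 60.3% of the Phospho1 UMIs, 53.8% of those of Alpl and 54.4% of those of Phex, against 32.0% for Enpp1, 14.5% for Slc20a2 and 8.49% for Slc20a1.

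Phex was at 53.3, 80.7, 102 and 98.3 CPM in the bone region (83.5 ± 22.1, n = 4), 4.71 times the next. E14.5 replicate 1 was the low value, with 39 UMIs. All other regions were at or below 21.2 CPM in each area, from 17.7 ± 1.97 in the Krt17 and Sostdc1 region to 2.86 ± 0.85 in the Ttr and Mt3 region, and each overlapped its neighbours in the order.

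**Figure D2:**
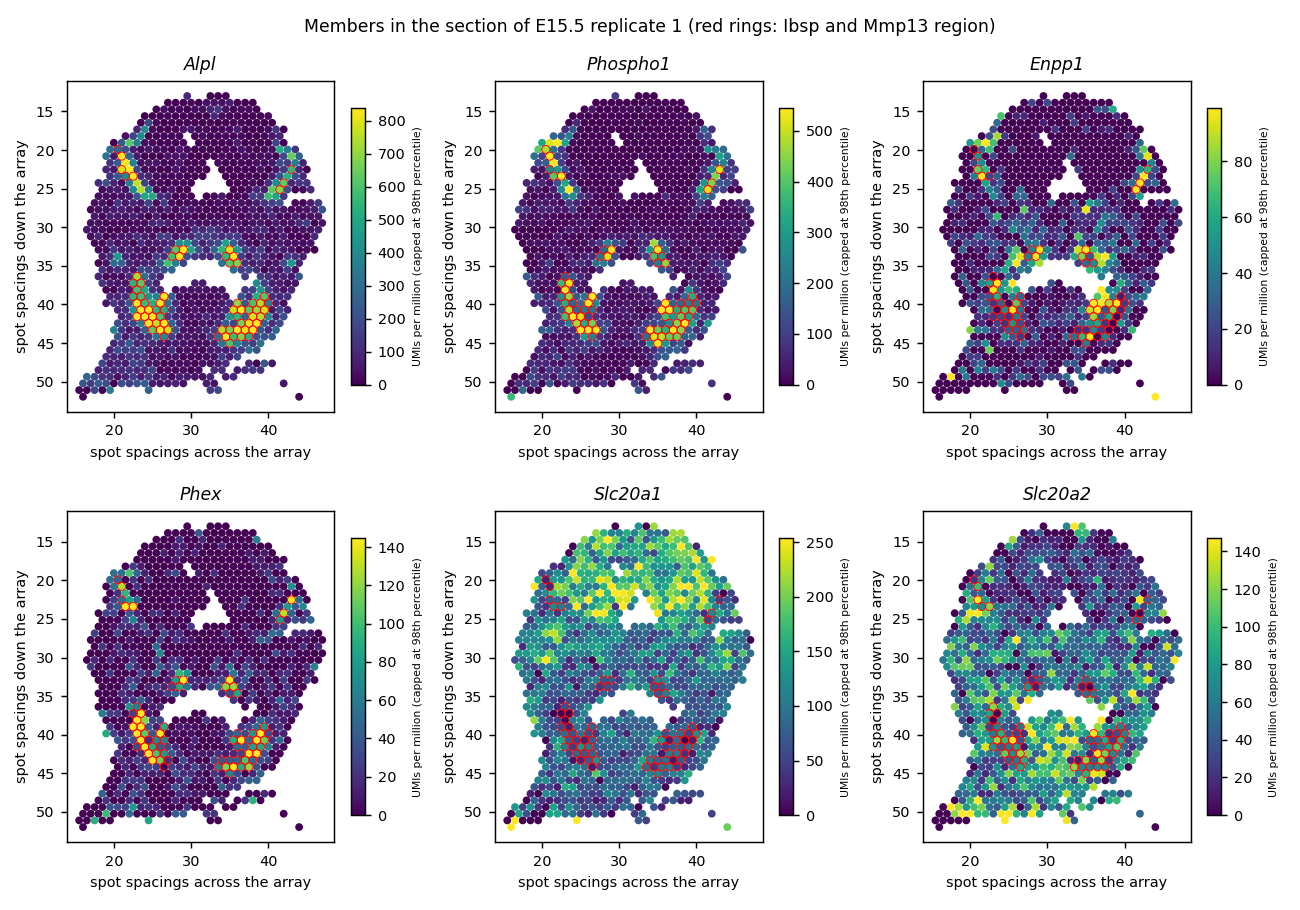
The 6 genes in the section of E15.5 replicate 1, with each tissue spot coloured by its CPM (scale capped at the 98th percentile of the gene, axes in spot spacings). Red rings mark the 69 spots of the Ibsp and Mmp13 region, where Alpl, Phospho1 and Phex are bright, while Slc20a1 is bright in the brain at the top.

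**Figure D3:**
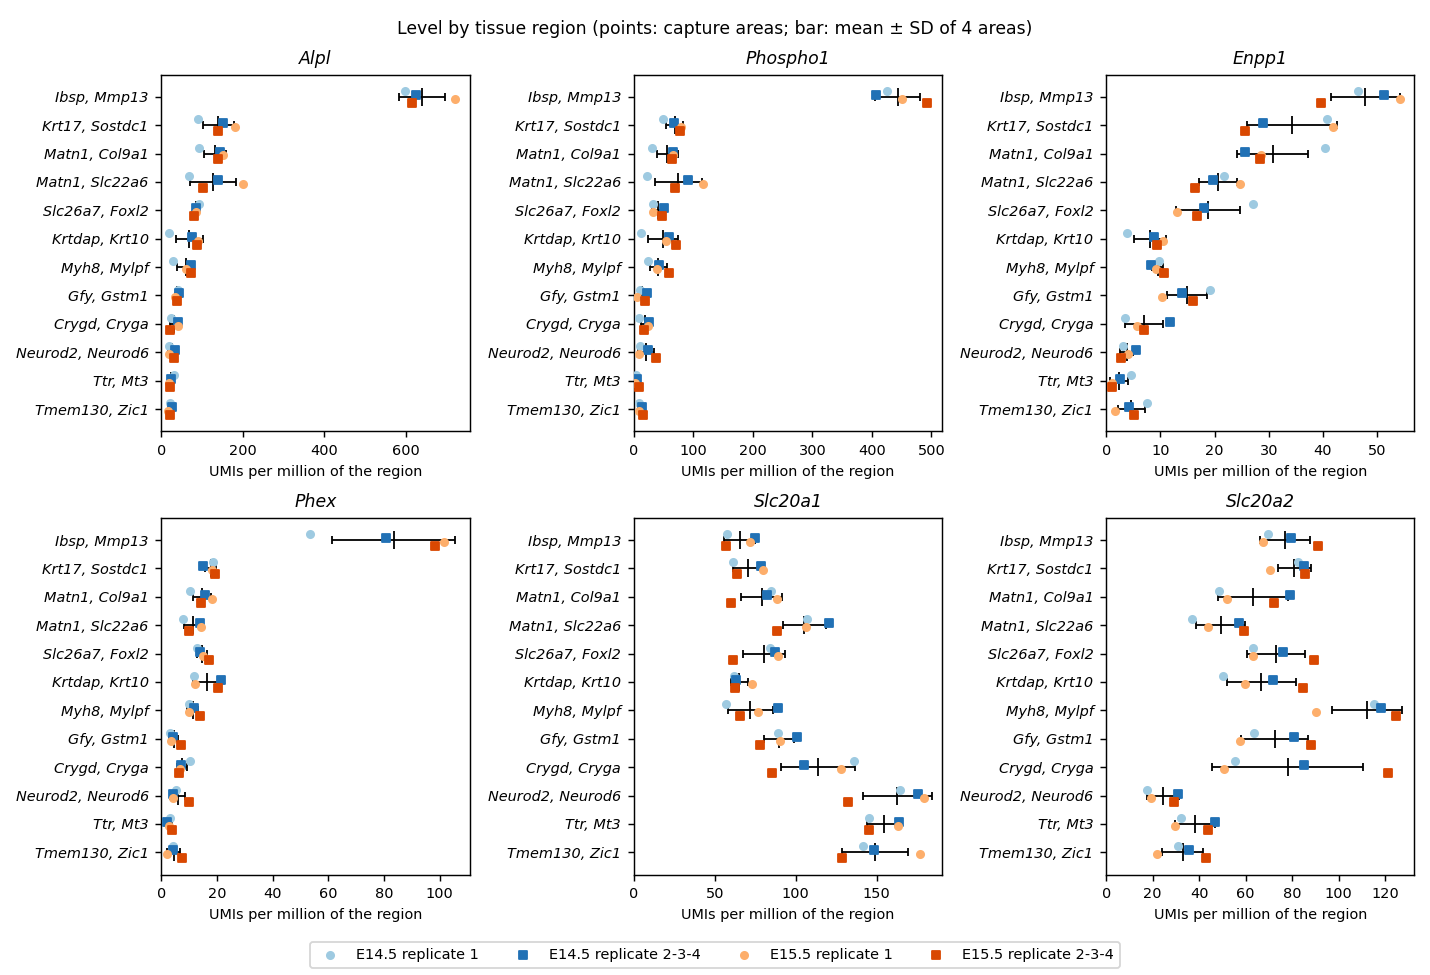
CPM of the 6 genes in the 12 regions read as tissue. Points are capture areas, and bars give the mean ± SD of the 4 areas. The bone region stands apart for Alpl, Phospho1 and Phex, overlaps the Krt17 and Sostdc1 region for Enpp1, and lies near the low end for Slc20a1.

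Enpp1 differed from the other 3 bone-enriched genes in how far it reached beyond the bone region. In the bone region it was at 46.4, 51.2, 54.2 and 39.6 CPM (47.8 ± 6.36, n = 4), and in the Krt17 and Sostdc1 region at 40.8, 28.9, 41.9 and 25.6 (34.3 ± 8.27). The 2 regions overlapped over all areas, though the bone region was the higher in 4 of 4 areas. The Matn1 and Col9a1 region followed at 30.7 ± 6.59 and lay above the Matn1 and Slc22a6 region (20.6 ± 3.49) in all areas. Below these came the Slc26a7 and Foxl2 region (18.8 ± 5.93) and the Gfy and Gstm1 region of olfactory genes (14.9 ± 3.68), and the Ttr and Mt3 region was the lowest (2.35 ± 1.67). When spots were divided into 20 clusters, the Krt17 and Sostdc1 region came first, at 53.4 ± 10.9 against 48.4 ± 6.89 in bone, so the highest region of Enpp1 depended on the clustering. Per 100 Alpl UMIs there were 7.48 ± 0.75 Enpp1 UMIs in the bone region, 26.7 ± 13 in the Krt17 and Sostdc1 region and 38.4 ± 8.48 in the Gfy and Gstm1 region (n = 4). The ratio in bone, 6.44 to 8.20, lay below that of both other regions in every area, but the Ttr and Mt3 region was also low, at 9.62 ± 4.91, and overlapped it. The Enpp1 values of the Ttr and Mt3 region rest on only 2 to 32 UMIs per area.

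Slc20a1 and Slc20a2, whose proteins carry the same ion, had opposite patterns across the head. Slc20a1 was highest in regions of brain genes, at 164, 175, 179 and 132 CPM in the Neurod2 and Neurod6 region of cortical neurons (163 ± 21.2, n = 4), 154 ± 10.5 in the mixed Ttr and Mt3 region and 149 ± 20.2 in the Tmem130 and Zic1 region. These 3 overlapped. The Crygd and Cryga region of lens genes followed at 114 ± 22.8, and the lowest were the bone region (65.3 ± 9.55) and the Krtdap and Krt10 region of surface epidermis genes (65.1 ± 5.23), which did not differ beyond their spread. The whole range was only 2.50-fold.

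Slc20a2 was highest in the Myh8 and Mylpf region of skeletal muscle genes, at 115, 118, 90.5 and 125 CPM (112 ± 15.0, n = 4), and that region lay above the Krt17 and Sostdc1 region (81.0 ± 7.15) without overlap. The Crygd and Cryga region came next at 78.1 ± 32.4 but reached 121 in E15.5 replicate 2-3-4, and it came first with 20 clusters (128 ± 47.5 over 2 areas) and when spots were clustered after thinning them to equal depth (115 ± 34.5 over 2 areas, against 111 ± 15.9 in the Myh8 and Mylpf region, both from unthinned counts). The bone region followed at 77 ± 10.9. The Neurod2 and Neurod6 region was the lowest, at 17.5, 31.1, 19.1 and 29.3 (24.2 ± 6.91), overlapping the Tmem130 and Zic1 region (32.8 ± 8.86). Per 100 Slc20a1 UMIs there were 161 ± 42.1 Slc20a2 UMIs in the muscle region, 120 ± 28.9 in the bone region and 15.3 ± 5.63 in the Neurod2 and Neurod6 region (n = 4), and the last did not overlap the other two.

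The members also separated by how fast their level fell with distance from the bone region, measured in spacings between neighbouring spots. Only 641 of the 2013 bone spots lay in that region and others lay in the rings around it. Distance from the region is thus not distance from all bone. At 1 spacing Alpl was at 32.0 ± 5.77% of its level in the bone region, Phospho1 at 26.2 ± 5.45% and Phex at 31.7 ± 7.26% (n = 4 areas). These fell close to the bone genes Dmp1 at 24.7 ± 2.54% and Ibsp at 24.7 ± 3.25%, the second of which helped define the region. Enpp1 kept 65.4 ± 14.6% at 1 spacing and 41.5 ± 7.0% at 2 spacings, where Alpl was at 13.6 ± 3.88%. At 6 or more spacings Enpp1 was still at 16.7 ± 3.91%, against 5.81 ± 1.58% for Alpl, 4.13 ± 1.85% for Phospho1 and 6.91 ± 1.35% for Phex. Slc20a1 was at 195 ± 25.3% there, and Slc20a2, still at 92.3 ± 19.4% at 4 to 5 spacings, was at 62.4 ± 7.41%.

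**Figure D4:**
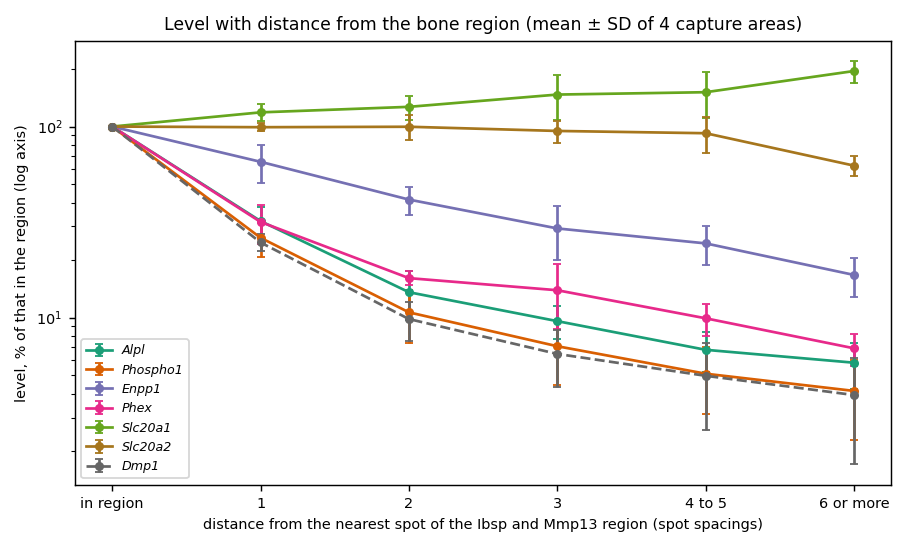
Level of each gene by distance from the nearest spot of the Ibsp and Mmp13 region, as a percent of the level in the region (log axis, mean ± SD of 4 areas). Alpl, Phospho1 and Phex fall along with the bone gene Dmp1 (dashed), Enpp1 falls more slowly, Slc20a2 stays level before it falls and Slc20a1 rises.

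E14.5 and E15.5, the stages before and after the palatal shelves fuse, were then compared over all tissue spots of an area. Alpl was at 69.4 and 135 CPM at E14.5 and at 128 and 191 at E15.5. Phospho1 was at 37.6 and 79.8 at E14.5 and at 70.5 and 141 at E15.5, and Phex at 9.52 and 17.3 against 16.7 and 31.0. For these 3 genes the replicate 2-3-4 area was the higher at each stage and the stages overlapped. Enpp1 was at 14.4 and 17.3 against 16.4 and 20.5, and Slc20a2 at 46.4 and 70.7 against 56.2 and 90.5. Slc20a1 was at 117 and 109 against 106 and 69.5, so its stages lay apart only by 109 against 106. Against the E14.5 area of the same number, each E15.5 area was lower in Slc20a1 and higher in the other members. The share of all genes whose stages lay apart, or that moved alike between areas of the same number, was not counted.

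No member was called between the stages, in a comparison where edgeR called 0.0% of 15609 genes (930 had an unadjusted p under 0.05, and DESeq2 called 28 genes, at an adjusted p under 0.1). The log2 differences of E15.5 against E14.5 were 0.56 (SE 0.365) for Alpl, 0.76 (SE 0.439) for Phospho1, 0.15 (SE 0.290) for Enpp1, 0.74 (SE 0.418) for Phex, -0.43 (SE 0.258) for Slc20a1 and 0.25 (SE 0.325) for Slc20a2, with edgeR adjusted p from 0.769 to 0.898. None of the 19 further genes that could be tested was called, with a median log2 difference of 0.292 against -0.00165 over all genes. Bone spots made up 18.1% to 30.8% of the spots of a section at E14.5 and 28.2% to 59.0% at E15.5, and these ranges overlapped. The part of the amount of bone in the plane of section in these differences was not tested. Slc20a1 was called lower at E15.5 (log2 difference -0.59, edgeR adjusted p = 0.0776) only when sections were taken as samples and the shallow section A of E14.5 was left out, and sections of an area share a library.

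Within bone spots the log2 differences between the stages were smaller in size for 5 of the 6 members, Enpp1 being the exception. They were 0.05 for Alpl, 0.09 for Phospho1, -0.16 for Enpp1, 0.25 for Phex, -0.15 for Slc20a1 and 0.06 for Slc20a2, all with an edgeR adjusted p = 1.0 and SE from 0.238 to 0.270. Here 0.00683% of 14631 genes were called, which is 1 gene, Fgf15. Of 16 further mineralization genes tested none was called (median -0.0327 against -0.0119 over all genes). The bone difference itself was not shown to vary with the stage either: the test of stage by bone called 0.00656% of 15240 genes, 1 gene, Nkx2-1, and for the members it gave edgeR adjusted p of 0.818 to 0.926. Among the 17 further genes none was called, with a median of -0.283 against -0.0159 over all genes. Phospho1 had the largest value, -0.45 (SE 0.191), and without E14.5 replicate 2-3-4 it was called (-0.83, edgeR adjusted p = 0.0405).

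Single sections showed the same contrast. Over the 8 sections, Alpl in the whole section ran from 69.5 to 230 CPM, a range of 3.30-fold, but in the bone region from 518 to 749, a range of 1.45-fold. Phospho1 ran over 4.86-fold in whole sections and 1.89-fold in the bone region, and Phex over 3.44-fold and 2.47-fold. Enpp1, at 1.90-fold and 1.80-fold, and Slc20a2, at 2.17-fold and 1.87-fold, varied about as much in both. Whole-section values of Alpl, Phospho1 and Phex therefore spread more than the level inside bone.

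**Figure D5:**
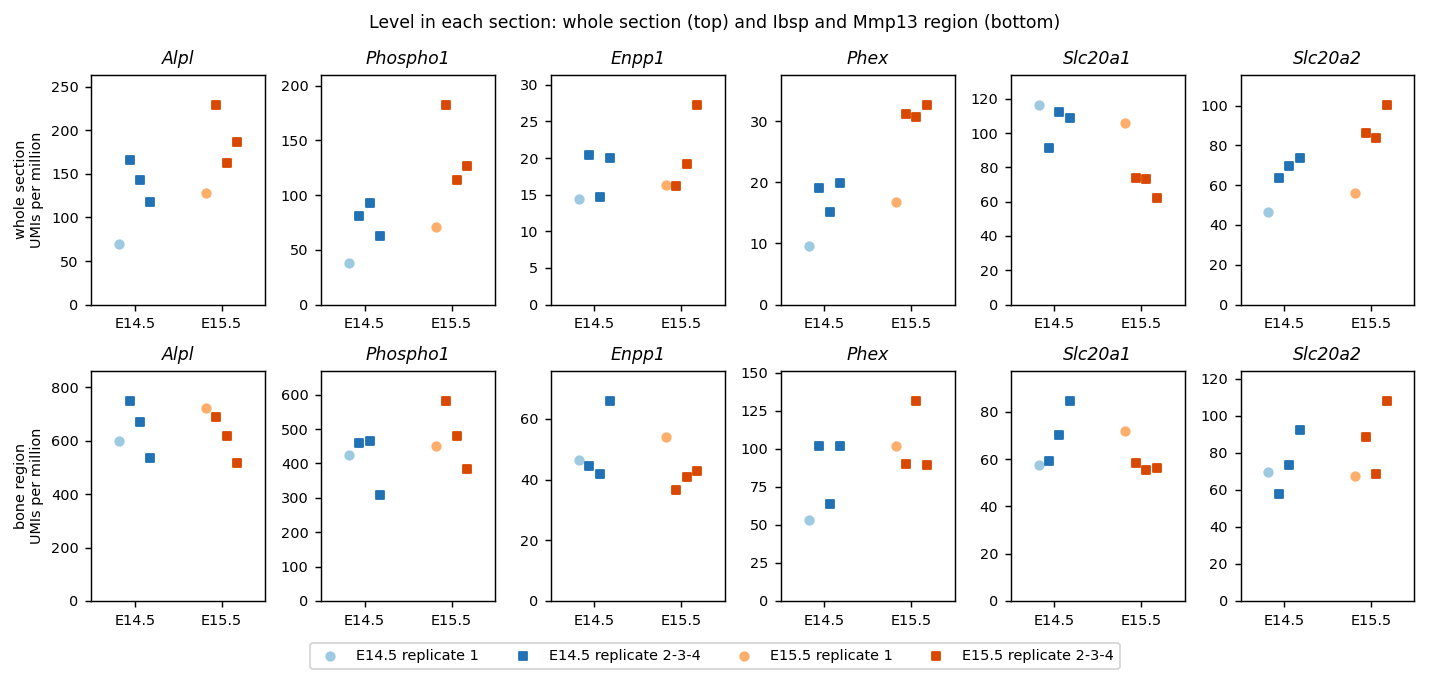
CPM of each gene in each of the 8 sections, over the whole section (top) and over its Ibsp and Mmp13 region (bottom), with vertical axes that start at 0. Sections of 1 capture area share a colour and a library. For Alpl the whole sections reach from 69.5 to 230 and the bone regions from 518 to 749.

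Across the 48 sums of a region in an area, the genes most like each member were named as a description, by the Pearson correlation of log2 CPM with 1 added, among 13025 genes. The sums of an area share a library and its depth. For Alpl these were Slc13a5, a citrate importer (0.94), Sp7, an osteoblast transcription factor (0.94), and Panx3 (0.93). For Phospho1 they were Ibsp (0.97), Slc13a5 (0.97) and Panx3 (0.95), and for Phex Slc13a5 (0.93), Car3 (0.93) and Phospho1 (0.92). Enpp1 had other neighbours, namely Col11a1, a collagen of cartilage (0.95), Vasn (0.94) and Runx2 (0.93), the transcription factor that acts early in osteoblasts. Slc20a1 was most like Kif21b (0.95), Sox11, a transcription factor of young neurons (0.95), and Smarcd1 (0.95), and Slc20a2 most like Fam129a (0.92), Slc25a24 (0.91) and Anp32b (0.90). Among the members themselves, Alpl and Phospho1 were the closest pair (0.93) and Slc20a1 and Slc20a2 the most opposed (-0.81).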

How the data were processed

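Visium libraries of formalin-fixed, paraffin-embedded coronal head sections were analysed. The UMI counts that the authors deposited, one for each gene in each spot, are raw and were made with Space Ranger 1.3.1 (replicate 1 areas) and 2.0.0 (replicate 2-3-4 areas) per the file headers, with mm10 named in the submitters' processing notes. The probe set and annotation are not given in the sources used here. The authors applied no normalization to them.

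UMIs of tissue spots were summed per capture area, over all spots (stage), over bone spots (stage), and over bone and other spots with the area as a term (bone against other, and its interaction with stage). Spots under 500 UMIs (96 of 6357) took part only in the whole-area sums. Sums were tested in R 4.3.3 with edgeR 4.0.16 (filterByExpr, TMM, glmQLFit, glmQLFTest; two-sided) and Benjamini-Hochberg adjustment over all genes tested, at 0.1, the false discovery rate in the study's methods. The 4 measured genes that chose bone spots (Bglap2 is not among the listed genes) were left out of the tests in which bone spots enter. The SE given with an edgeR log2 difference is the size of that difference divided by the square root of its quasi-likelihood F statistic. DESeq2 1.42.0 and other settings were alternatives. Scripts were tested on simulated counts with known changes.

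Regions were 14 k-means clusters (scikit-learn 1.9.0, Python 3.11.15) of 30 principal components of log-normalized spots over the 2000 most variable genes, without the members and the 23 genes of the mineralization list. A cluster with over 90% of its spots from 1 area, or with a median UMI count below the median of all spots divided by 3, was not read as tissue. Doublets were not called, because spots are not single cells. The genes named are the 6 members, the 23 genes, the 3 genes most like each member (at least 500 UMIs, sums of at least 20 spots) and marker genes a result turns on. Fgf15 and Nkx2-1 are named as single calls, after their values were seen. The members and lists were chosen with earlier results of these data known. Replicate numbers were not taken to pair the samples, as each stage has only 2 areas and the labels do not tie equal numbers together. Areas of equal number do share a Space Ranger version and a number of sections. Any effect of these stays in the spread between areas in the main stage tests, and a replicate block was an alternative. Tooth germs are not reported here as a separate tissue.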

Additional observations from a re-analysis of the deposited data

Results flagged for a closer look

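Phex stood out in 1 section. At E15.5 the whole section of replicate 1 was at 16.7 CPM, and the other sections of that stage were farther from it than from each other, by Dixon's criterion at its 95% critical value. This was 1 of 36 groups of 4 sections examined, where chance flags about 1 in 20. In the bone region of the same section Phex was at 102 CPM, within the 89.4 to 131 of the stage.

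Member UMIs were also found under barcodes off tissue. In E14.5 replicate 2-3-4, 8 such barcodes held 209555 UMIs in all, with 5 of Phospho1, 31 of Slc20a1 and 15 of Slc20a2. In E15.5 replicate 2-3-4, 11 such barcodes held 352936 UMIs, with 22 of Alpl, 19 of Phospho1, 5 of Phex, 19 of Slc20a1 and 29 of Slc20a2. These counts lie above the 3 UMIs that a count of 0 allows, and no comparison used them.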

How the results depend on the processing

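All 6 members kept their direction and their call in bone against other spots under all 13 alternatives, and the number of genes called there was 8596, with 5675 at equal depth and 6003 to 8692 when 1 area was left out. The stage counts were less stable. Over all spots (0 genes called), DESeq2 called 28, sections taken as samples without the shallow section A of E14.5 called 2634 (chosen after seeing the data), and leaving out 1 area gave 0 to 78, the 78 without E15.5 replicate 1. In bone spots (1 called), the counts were 19 with DESeq2, 0 without TMM, 55 without a filter on low counts, 0 at an adjusted p under 0.05, 0 at equal depth, 2 with sections as samples, 5 with section A left out, 0 and 4 with bone spots from 250 and 1000 CPM, 0 with bone spots from the cluster, and 11 to 70 without 1 area, highest without E14.5 replicate 2-3-4. For stage by bone (1 called) they were 8 with DESeq2, 0 without TMM, 85 without the filter, 0 at 0.05, 11 at equal depth, 0 from 250 CPM, 335 with bone spots from the cluster, and 20 to 790 without 1 area, again highest without E14.5 replicate 2-3-4. Leaving out an area leaves 1 area at that stage, which is then assumed to vary like the others. The causes were not tested.

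With a replicate block 24 genes were called between the stages in bone spots and 0 over all spots. Same-numbered areas correlated at 0.25 in their deviations over all spots and at 0.0075 in bone spots, so with 2 pairs the numbers were not read as pairing, and no member was called under the block.

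No member's stage difference was called under any alternative except Slc20a1 (-0.59) and Phospho1 (-0.83) as given above. Directions reversed for uncalled values only. In bone spots Alpl was at -0.084 with sections as samples and -0.024 with section A left out. In stage by bone, Alpl was at 0.10 from 250 CPM, Enpp1 at 0.17 at equal depth, and Phex at 0.43 at equal depth and 0.040 from the cluster. Without 1 area, the stage difference ran from -0.0093 to 0.34 for Enpp1 and from -0.11 to 0.64 for Slc20a2 over all spots, and in bone spots from -0.11 to 0.24 for Alpl, -0.037 to 0.25 for Phospho1, -0.36 to 0.023 for Enpp1, -0.35 to 0.11 for Slc20a1 and -0.25 to 0.32 for Slc20a2. For stage by bone it ran from -0.54 to 0.27 for Enpp1 and -0.45 to 0.14 for Phex.

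With 9 clusters the levels in the bone region were lower, at 392 CPM for Alpl, 253 for Phospho1, 39.7 for Enpp1 and 51.1 for Phex. When spots were thinned to 2000 UMIs and levels were taken from the thinned counts, Slc20a1 was at 137 in the Neurod2 and Neurod6 region and Slc20a2 at 142 in the Myh8 and Mylpf region. Depth limits E14.5 replicate 1 most, where Phex rested on 147 UMIs in all.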
